A study of Mus musculus with 12 samples.

Results

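43 interferon-stimulated genes, listed by symbol, were followed in RNA sequencing of FACS-sorted astrocytes. The cells came from cerebral cortex, and all mice were WT C57BL/6J. All 43 listed symbols were found among the 15774 genes of the count table, and 43 of 43 passed the filter on low counts that left 15635 genes for testing. The list names genes and its rule uses no measured value, but it was chosen with earlier results of these data known. The member counts below therefore describe these data and are no independent test. There were 6 groups of 2 libraries, sham and days 1, 3, 7, 21 and 60 after focal ischemic stroke. For the stroke the distal branch of the middle cerebral artery was ligated permanently, and both common carotid arteries were closed for 7 min. Sham surgery went no further than lesioning the surface of the skull. The groups therefore shared genotype and tissue and differed in surgery and in the time after it. No day after surgery is given for sham, and the same sham libraries serve every time. Changes with time after surgery therefore cannot be told apart from those of stroke. The age of the mice, the number of animals behind a library and the marker used in the sort are not given in the sources used here. The p-values rest on the spread between the 2 libraries within each group, pooled over the 6 groups and drawn towards that of other genes. That spread may therefore be technical. Replicate 1 of each group held 1.30e+07 to 1.66e+07 counts and replicate 2 held 9.71e+07 to 1.56e+08. Levels are given as CPM (counts scaled to a common library total by TMM), they are not per length, and pairs of levels are given as replicate 1 and then replicate 2. A gene was called higher or lower at a Benjamini-Hochberg adjusted p under 0.05, over all 15635 genes, in edgeR's quasi-likelihood test. A value followed by ± is a log2 fold change, against sham unless another comparison is named, with its standard error.

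Interferons are secreted proteins that warn cells of infection or damage. Type I interferons bind the IFNAR receptor, whose Janus kinases activate STAT proteins, and these join IRF9 in a complex that binds the interferon-stimulated response element (ISRE). Type II interferon binds the IFNGR receptor and acts mainly through the gamma-activated site (GAS). The genes switched on this way encode sensors of foreign nucleic acid, proteins that block viral growth, GTPases that attack the compartments of intracellular microbes, and regulators of the response itself. Astrocytes carry both receptors and express many of these genes in infected, injured and ageing brain.

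The promoters show the sequences through which these genes are known to be reached. RefSeq promoter windows of GRCm38.p6, 250 bases before to 50 bases after a gene's start, matched 32 of the 43 members by symbol, with 38 windows. An ISRE, searched on both strands as GAAA, any 2 bases and GAAA again, was present in 19 of the 32 members, against 3.99% of the 27025 genes of the table. A GAS, searched as TTCNNNGAA on both strands, was present in 11 of 32, against 9.55% of those genes. The motifs can share bases, and 7 members held both. A match describes the letters and is not a measured binding site. The stretches below were chosen because they show a GAS alone (Irf1), an ISRE alone (Isg15, Ifit1, Ifit3), a GAS that runs into an ISRE (Bst2), and the near-identical pair Igtp and Irgm2, which was added after its values were seen. They are written 5′ to 3′ on the strand of the gene, and capitals mark the motif matches. An ISRE on the other strand reads as a pair of TTTC.
Irf1: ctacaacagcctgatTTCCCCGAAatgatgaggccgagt
Isg15: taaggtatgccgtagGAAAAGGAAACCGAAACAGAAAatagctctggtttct
Ifit1: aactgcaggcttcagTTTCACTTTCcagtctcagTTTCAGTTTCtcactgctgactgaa
Ifit3: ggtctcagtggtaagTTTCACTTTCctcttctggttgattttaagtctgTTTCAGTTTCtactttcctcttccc
Bst2: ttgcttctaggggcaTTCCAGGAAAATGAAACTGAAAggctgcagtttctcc
Igtp: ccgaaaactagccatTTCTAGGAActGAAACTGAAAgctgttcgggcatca
Irgm2: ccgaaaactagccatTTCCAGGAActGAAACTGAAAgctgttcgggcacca

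Each stretch lies before the start that RefSeq gives the gene. For Irgm2 that start is not the GENCODE one: its stretch lies inside the longer GENCODE gene, outside its exons, and the bases after the RefSeq start were not found in a GENCODE transcript of Irgm2. The positions in GRCm38 are chr11:53769909-53769947, plus strand for Irf1, chr4:156200860-156200911, minus strand for Isg15, chr19:34640770-34640828, plus strand for Ifit1, chr19:34583358-34583431, plus strand for Ifit3, chr8:71537572-71537623, minus strand for Bst2, chr11:58199496-58199546, plus strand for Igtp and chr11:58214887-58214937, plus strand for Irgm2. Isg15 held a run of overlapping ISRE matches, and Ifit1 and Ifit3 each held a separate pair. The stretches of Igtp and Irgm2 differed at 2 of 51 positions, T19C and T49C, counted from 1 at the 5′ end with the Igtp base first, and T19C lies inside the GAS match.

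The sorted cells were checked against marker genes before the members were compared. All 10 astrocyte markers, among them Aldh1l1, Aqp4 and Slc1a3, were detected in every library. Their summed level was 7277 to 8524 CPM in sham, 1393 to 1999 CPM on day 7 and 2757 to 3082 CPM on day 60. On the early days the libraries differed, with 3884 and 11985 CPM on day 1 and 3364 and 8246 CPM on day 3. Markers of other cells moved as well. Endothelial markers were at 1483 to 3116 CPM in sham, 5679.8 to 7248 CPM on day 1 and 1486 to 3191 CPM on day 60. The summed fibroblast markers, which include collagens, were at 72.6 to 87.2 CPM in sham, 88283 to 286817 CPM on day 7 and 16616 to 27438 CPM on day 60. Macrophage markers were at 43.7 to 51.1 CPM in sham, 11389.7 to 11716 CPM on day 7 and 2052 to 2619.9 CPM on day 60. Microglial markers were at 515 to 732 CPM in sham, 2910.3 to 3468 CPM on day 7 and 377 to 540.2 CPM on day 60, the last overlapping the sham range. Neuronal markers were at 8229 to 10629 CPM in sham and 1035 to 1149.7 CPM on day 60. Oligodendrocyte markers were at 10076 to 10638 CPM in sham, above the astrocyte sum of that group, and 1169 to 1542 CPM on day 60. In such bulk samples fewer cells of a type and less RNA per cell cannot be told apart. The part of these cells in the levels of the members was not tested.

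The summed level of the 43 members was 559.6 to 575 CPM in sham, 2029.7 to 2548 CPM on day 1, 1774 to 2155 CPM on day 3, 2554 to 2861 CPM on day 7, 3651 to 4029 CPM on day 21 and 4453 to 4902 CPM on day 60. The member sum was highest on day 60. Macrophage, fibroblast and microglial sums were highest on day 7, the endothelial sum on day 1 and the neuronal sum in sham. How these sums relate to the member sum was not tested. The sum is of CPM and weighs abundant members such as Ifitm3 most.

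**Figure D1:**
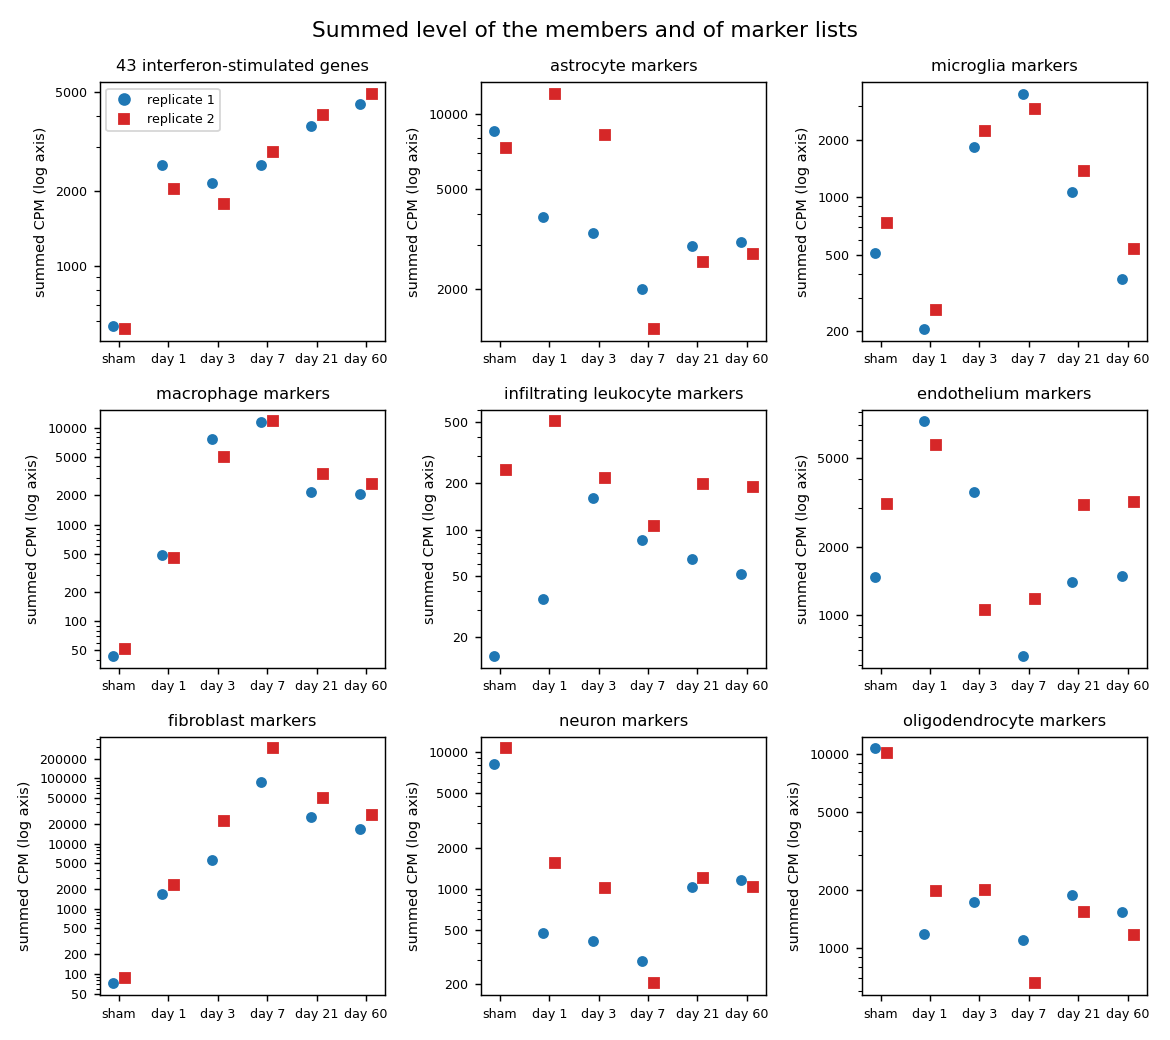
Summed levels in CPM (log axis) of the members and of the marker lists in each of the 12 libraries, by group; each point is a library. The member sum is highest on day 60 (4453 to 4902 CPM). The macrophage sum is highest on day 7 (11389.7 to 11716 CPM) and the endothelial sum on day 1 (5679.8 to 7248 CPM). Relations between the sums were not tested.

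Most members rose after stroke and stayed raised to the last time measured. At day 1, 28 of 43 were called higher than sham, where 16.7% of all genes were. At day 3 it was again 28 (18% of all genes), on day 7 it was 38 (23.2%), on day 21 it was 41 (17.8%) and on day 60 it was 41 (16.8%). The same all-gene shares belong beside the counts of each role group below. The median log2 fold change of the members was 1.90 on day 1, 1.65 on day 3, 2.34 on day 7, 2.67 on day 21 and 2.96 on day 60, where the median over all genes tested lay between 0.01 and 0.16. Every library lay above both sham libraries for 40 members on day 1 (33.8% of all genes), 37 on day 3 (35.0%), 42 on day 7 (40.4%), 42 on day 21 (38.4%) and 43 on day 60 (33.1%). Without the replicate block and with TMM scaling, edgeR called no member lower than sham at any time, where 13.9%, 14.2%, 19.8%, 15.4% and 14.8% of all genes were at days 1, 3, 7, 21 and 60. At an unadjusted p under 0.05 there was 1 such member, Gbp5 on day 3. At day 3 edgeR with the replicate number as a block, edgeR with DESeq2 size factors and DESeq2 itself each called 1 member lower. All 5 comparisons use the same sham libraries, so they are not independent of each other.

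25 members were called higher at all 5 times, as were 8.09% of all genes. A further 10 were called higher at days 21 and 60 and at neither day 1 nor day 3, a pattern held by 2.53% of all genes. Rsad2 and Cmpk2 were called at no time. With the replicate number as a block 30 were called at all 5 times and 2 at the late times alone. Of the calls on day 1 11 of 28 held under every changed setting, of those on day 3 7 of 28, and of those on day 60 29 of 41. Without sham replicate 1 the count was 18 on day 1 and 18 on day 3, without day 1 replicate 1 it was 15 on day 1, and on day 3 it was 13 without sham replicate 2 and 13 without day 3 replicate 1. Leaving out each library in turn gave 29 to 39 members on day 7, 30 to 42 on day 21 and 32 to 41 on day 60.

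**Figure D2:**
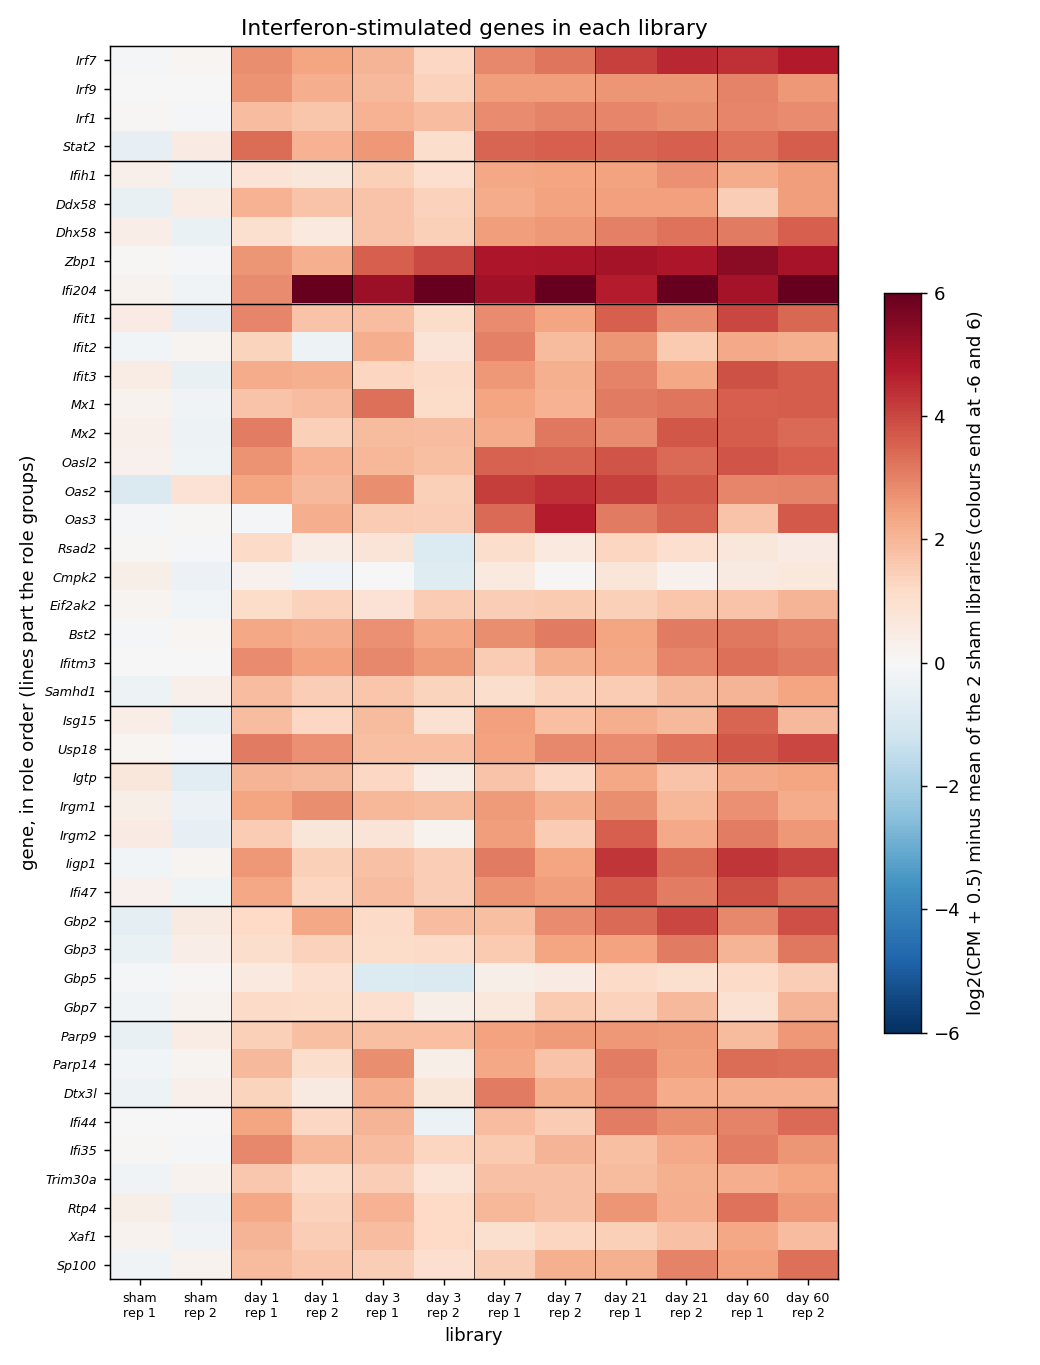
Level of each member (rows, by role) in each of the 12 libraries (columns), as log2(CPM + 0.5) minus the mean of the 2 sham libraries. All 43 rows have both day 60 libraries above both sham libraries, and 28 of 43 members have their highest group mean on day 60; Rsad2 and Cmpk2 were called at no time.

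The transcription factors of the list carry the signal into the nucleus and amplify it, and 4 of 4 were called higher at each of the 5 times. Irf7, the factor that drives a strong type I interferon response (ENSMUSG00000025498.15, chr7:141262706-141266481), stood at 11.9 and 14.0 CPM in sham, 91.1 and 67.6 on day 1, 55.0 and 31.5 on day 3, 97.9 and 123 on day 7, 227 and 312 on day 21 and 282 and 362 on day 60. Every library after stroke lay above both sham libraries, and the libraries of days 21 and 60 lay above all earlier ones. Its log2 fold change against sham was 2.61 ± 0.39 (adjusted p = 0.00214) on day 1 and 4.64 ± 0.43 (adjusted p = 9.82e-05) on day 60. Irf1, which is induced by both kinds of interferon (ENSMUSG00000018899.16, chr11:53770014-53778374), stood at 21.1 and 19.5 CPM in sham, 74.2 and 65.4 on day 1, 87.8 and 74.6 on day 3, 149 and 164 on day 7, 160.4 and 144 on day 21 and 159 and 147 on day 60. Its levels fell into 3 steps, sham, days 1 and 3, and days 7 to 60, with no overlap between them. Against sham the log2 fold change was 1.78 ± 0.29 (adjusted p = 0.00273) on day 1 and 2.92 ± 0.30 (adjusted p = 0.000150) on day 60. Irf9, the DNA-binding part of the complex that reads the ISRE (ENSMUSG00000002325.15, chr14:55603571-55610030), stood at 17.6 and 16.6 CPM in sham, 112 and 78.3 on day 1, 67.3 and 45.7 on day 3, 98.8 and 100.3 on day 7, 109.9 and 108 on day 21 and 139 and 107 on day 60. The day 3 libraries lay below those of day 1, and days 1 and 60 overlapped. In log2 terms it differed from sham by 2.84 ± 0.35 (adjusted p = 0.000376) on day 60. Stat2, its partner in that complex, was at a mean of 7.98 CPM in sham and 87.8 CPM on day 60, with a log2 fold change of 3.45 ± 0.63 (adjusted p = 0.00331). Irf7 and Irf9 share exon bases with Phrf1 and Rnf31, and Irf1 with Gm17334. The strand setting of the counting is not stated, so reads from shared bases cannot be assigned with certainty.

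The nucleic acid sensors detect foreign or misplaced RNA and DNA, and 5 of 5 were called higher from day 3 onward. Zbp1, a sensor of left-handed nucleic acid that can trigger cell death (ENSMUSG00000027514.14, chr2:173206612-173218923), stood at 0.836 and 0.750 CPM in sham, 7.67 and 5.18 on day 1, 14.9 and 19.9 on day 3, 36.9 and 38.1 on day 7, 40.8 and 37.3 on day 21 and 54.5 and 39.4 on day 60. It was below 1 CPM in sham and climbed without overlap from sham to day 1, to day 3 and to day 7. The log2 fold change from sham was 5.90 ± 0.42 (adjusted p = 3.98e-05) on day 60. Dhx58, which encodes LGP2, a regulator of the RNA sensors RIG-I and MDA5 (ENSMUSG00000017830.15, chr11:100694884-100704271), stood at 5.67 and 3.16 CPM in sham, 8.89 and 6.73 on day 1, 15.3 and 12.2 on day 3, 26.6 and 28.3 on day 7, 37.6 and 45.6 on day 21 and 40.2 and 56.9 on day 60. Day 1 lay just above sham, and days 21 and 60 lay above all other groups. It was 0.83 ± 0.38 (adjusted p = 0.122) on day 1, not called, and 3.47 ± 0.41 (adjusted p = 0.000333) on day 60. Ifih1, which encodes MDA5 itself (ENSMUSG00000026896.14, chr2:62595798-62646255), stood at 7.59 and 4.77 CPM in sham, 10.9 and 9.81 on day 1, 17.1 and 12.6 on day 3, 32.5 and 33.2 on day 7, 34.7 and 43.1 on day 21 and 30.3 and 36.7 on day 60. The levels of days 7, 21 and 60 lay above those of days 1 and 3, and day 60 overlapped both day 7 and day 21. It was 0.75 ± 0.35 (adjusted p = 0.127) on day 1, not called, and 2.45 ± 0.36 (adjusted p = 0.00113) on day 60. Ddx58, which encodes RIG-I, was called higher at all 5 times, with a log2 fold change of 2.05 ± 0.44 (adjusted p = 0.00701) on day 60, and its day 60 call ended without sham replicate 1 and without day 60 replicate 2. Ifi204, a member of a DNA-sensing family with near copies in the genome, had 3 counts in sham, all in replicate 1, and 318 and 44009 counts on day 60. Its level on day 60 was 18.2 and 319 CPM, so the 2 libraries did not give the same level. Exons of Dhx58 overlap those of Dhx58os on the opposite strand.

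The antiviral effectors act on viral entry, translation or replication. Of 14 there were 9 called higher on day 1, 8 on day 3 and 12 at each of days 7, 21 and 60. Ifit1, whose product binds viral RNA caps (ENSMUSG00000034459.8, chr19:34640871-34650009), stood at 18.8 and 8.97 CPM in sham, 103 and 44.4 on day 1, 48.4 and 28.9 on day 3, 95.2 and 68.8 on day 7, 159 and 97.1 on day 21 and 214 and 149 on day 60. All libraries after stroke lay above sham, with the lowest mean after stroke on day 3. It was 1.48 ± 0.53 (adjusted p = 0.0571, or 0.00126 with the replicate number as a block) on day 3, not called, and 3.71 ± 0.58 (adjusted p = 0.00148) on day 60. Ifit3, its neighbour and partner (ENSMUSG00000074896.3, chr19:34583531-34588731), stood at 34.1 and 18.4 CPM in sham, 118 and 111 on day 1, 61.2 and 55.5 on day 3, 153 and 111 on day 7, 201 and 128 on day 21 and 362 and 319 on day 60. The day 60 libraries lay above every other library. Its log2 fold change was 2.13 ± 0.40 (adjusted p = 0.00464) on day 1 and 3.70 ± 0.42 (adjusted p = 0.000274) on day 60. Oasl2, an oligoadenylate synthetase-like protein (ENSMUSG00000029561.17, chr5:114896936-114912234), stood at 15.3 and 10.4 CPM in sham, 83.4 and 54.7 on day 1, 51.0 and 46.0 on day 3, 154 and 148 on day 7, 179 and 140.0 on day 21 and 177 and 159 on day 60. Days 7, 21 and 60 lay above days 1 and 3, and day 21 overlapped both day 7 and day 60. Against sham the log2 fold change was 3.71 ± 0.37 (adjusted p = 0.000137) on day 60. Bst2, or tetherin, which holds budding virus at the cell surface (ENSMUSG00000046718.8, chr8:71534255-71537456), stood at 15.4 and 17.9 CPM in sham, 85.1 and 77.8 on day 1, 113 and 85.5 on day 3, 116 and 147 on day 7, 87.1 and 148 on day 21 and 153 and 134 on day 60. All libraries after stroke lay above sham, and those of day 3 overlapped those of day 21. In log2 terms it differed from sham by 2.29 ± 0.36 (adjusted p = 0.00253) on day 1 and 3.11 ± 0.37 (adjusted p = 0.000341) on day 60.

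Ifitm3, which blocks viral fusion, had the highest CPM of the members, at 831 and 725 CPM on day 60 against 82.7 and 82.8 CPM in sham. Samhd1, which depletes nucleotides, and Eif2ak2, the RNA-activated kinase PKR, were also called higher at all 5 times. Ifit2, Oas2 and Oas3 were called from day 7 onward only, and each of their day 60 calls ended without at least 1 of the sham or day 60 libraries. Mx1 had 3 counts in sham, all in replicate 1, and 113 and 943 counts on day 60. With both libraries of a group pooled and scaled by their totals, the ratio was 273 (95% interval 93.3 to 1328). Mx2 had 11 counts in sham and its pooled ratio on day 60 was 75.5 (95% interval 42.0 to 152). These intervals cover counting error only, and the deeper replicate 2 weighs most in pooled ratios. The means of the 2 libraries, which weigh them equally, were 0.0896 CPM in sham and 6.65 CPM on day 60 for Mx1. Those of Mx2 were 0.203 and 7.43 CPM. Both names belong to antiviral GTPases, and RefSeq lists them as transcribed pseudogenes in this reference. GENCODE differs, with Mx1 as protein coding and Mx2 as a polymorphic pseudogene. Rsad2, or viperin, stood at 15.3 and 13.7 CPM in sham, 32.3 and 19.98 on day 1, 24.8 and 7.85 on day 3, 30.6 and 21.8 on day 7, 36.6 and 29.7 on day 21 and 23.5 and 20.5 on day 60. Its libraries overlapped sham on day 3. It was 1.19 ± 0.51 (adjusted p = 0.0947, or 0.0254 with the replicate number as a block) on day 21 and its log2 fold change on day 60 was 0.60 ± 0.50 (adjusted p = 0.387). Cmpk2, a nucleotide kinase that lies beside Rsad2 on chromosome 12 and is read in the opposite direction, stood at 43.1 and 27.1 CPM in sham, 41.0 and 29.7 on day 1, 34.8 and 20.7 on day 3, 51.3 and 36.2 on day 7, 57.0 and 40.7 on day 21 and 49.6 and 53.7 on day 60. Its groups overlapped sham up to day 21 and its log2 fold change on day 60 was 0.56 ± 0.38 (adjusted p = 0.294). These neighbours were the members called at no time.

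Isg15 encodes a small modifier that is joined to other proteins, and Usp18 the protease that removes it and restrains the type I receptor. Isg15 (ENSMUSG00000035692.6, chr4:156199424-156200818) stood at 8.06 and 4.41 CPM in sham, 22.6 and 15.05 on day 1, 23.3 and 11.9 on day 3, 35.0 and 22.1 on day 7, 29.3 and 24.7 on day 21 and 71.4 and 24.4 on day 60. All libraries after stroke lay above sham, and the day 60 libraries lay far apart. It was 1.60 ± 0.58 (adjusted p = 0.0588, or 0.00339 with the replicate number as a block) on day 1, not called, and 2.95 ± 0.60 (adjusted p = 0.00574) on day 60. The day 60 call ended without sham replicate 2 (adjusted p = 0.0508), with a range from 1.79e-05 to 0.0508 over 16 changed settings. Usp18 (ENSMUSG00000030107.10, chr6:121245906-121270917) stood at 8.72 and 7.29 CPM in sham, 73.0 and 55.5 on day 1, 29.2 and 28.8 on day 3, 44.9 and 61.4 on day 7, 60.3 and 80.9 on day 21 and 112 and 138 on day 60. The day 3 libraries lay below all others after stroke, and the day 60 libraries above them. The log2 fold change from sham was 3.01 ± 0.34 (adjusted p = 0.000758) on day 1 and 3.96 ± 0.35 (adjusted p = 8.07e-05) on day 60.

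**Figure D3:**
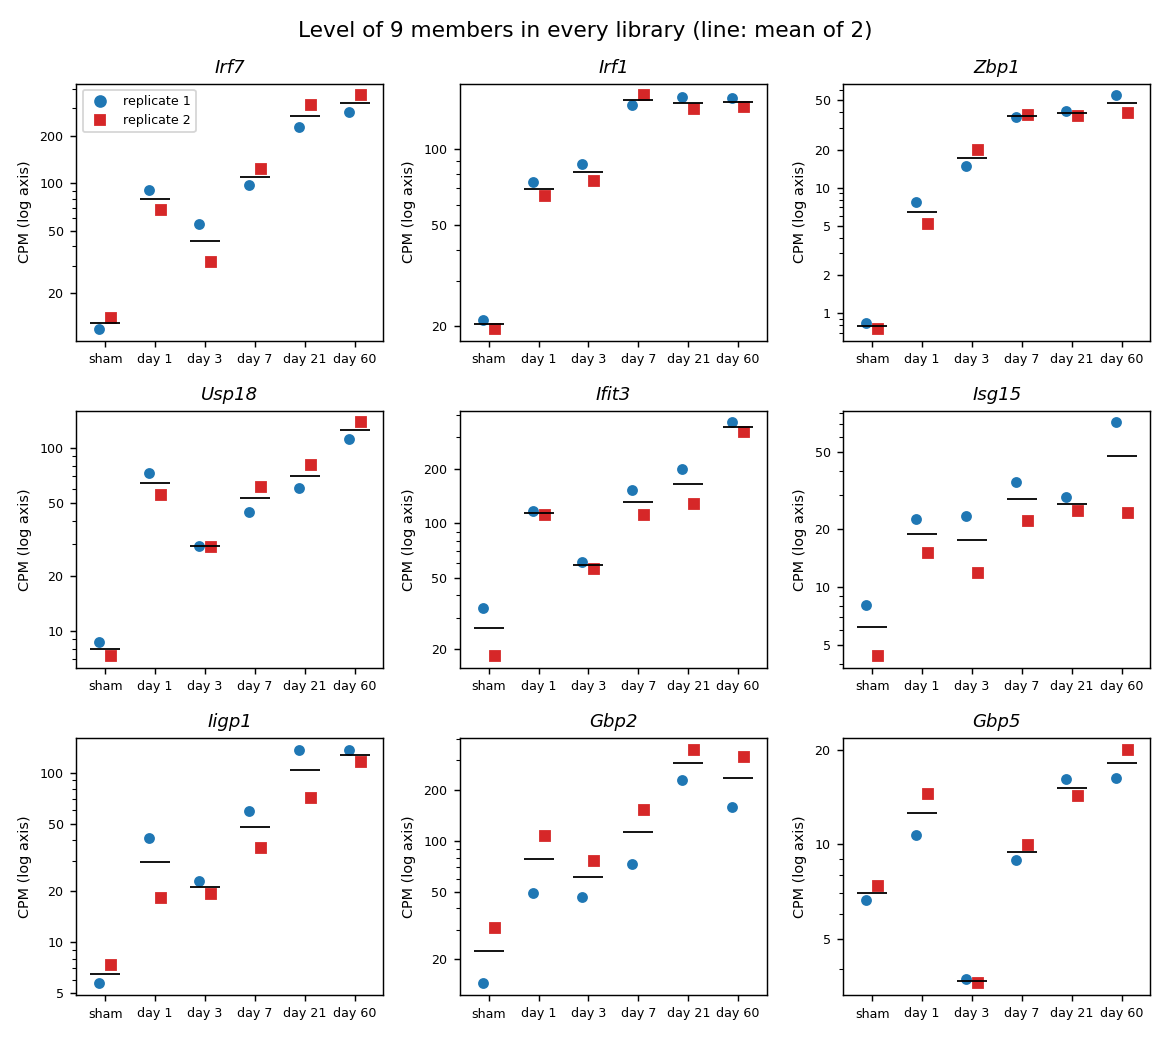
Levels in CPM (log axis) of selected members in each library against the group; circles are replicate 1, squares replicate 2 and short lines group means. Irf7 reaches 282 and 362 CPM on day 60, and Gbp5 has its lowest libraries on day 3 (3.73 and 3.61 CPM).

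The immunity-related GTPases are induced by type II interferon and act on membranes around microbes. Of 5 there were 4 called higher on day 1, 3 on day 3 and 5 at each later time. Iigp1 (ENSMUSG00000054072.12, chr18:60376027-60392634) stood at 5.73 and 7.31 CPM in sham, 41.4 and 18.3 on day 1, 23.1 and 19.1 on day 3, 59.7 and 35.9 on day 7, 136 and 70.8 on day 21 and 137 and 116 on day 60. Days 21 and 60 lay above all earlier libraries. Its log2 fold change was 2.19 ± 0.48 (adjusted p = 0.00882) on day 1 and 4.27 ± 0.53 (adjusted p = 0.000399) on day 60. The day 1 call ended without sham replicate 1 (adjusted p = 0.0655) and without day 1 replicate 1 (adjusted p = 0.0738), with a range from 0.000225 to 0.0738 over 16 changed settings. Ifi47 (ENSMUSG00000078920.3, chr11:49076587-49096974) stood at 10.2 and 6.93 CPM in sham, 44.0 and 21.3 on day 1, 31.3 and 24.6 on day 3, 56.9 and 49.6 on day 7, 115 and 73.8 on day 21 and 127 and 87.7 on day 60. It too had its highest libraries at days 21 and 60. Against sham the log2 fold change was 3.65 ± 0.46 (adjusted p = 0.000475) on day 60. Irgm2 (ENSMUSG00000069874.7, chr11:58199618-58222782) stood at 14.8 and 7.14 CPM in sham, 30.7 and 17.4 on day 1, 17.8 and 11.9 on day 3, 60.3 and 30.9 on day 7, 128 and 52.5 on day 21 and 89.1 and 65.4 on day 60. Sham and day 3 overlapped, and replicate 1 lay above replicate 2 in every group. It was 1.14 ± 0.55 (adjusted p = 0.143, or 0.00622 with the replicate number as a block) on day 1, not called, and 2.82 ± 0.58 (adjusted p = 0.00602) on day 60. The day 60 call ended without sham replicate 2 (adjusted p = 0.0511), with a range from 2.87e-05 to 0.0511 over 16 changed settings. Irgm1, a regulator of the other members of the family, was called higher at all 5 times, with 2.49 ± 0.42 (adjusted p = 0.00226) on day 60. Igtp, next to Irgm2 on chromosome 11 and sharing exon bases with it, was 2.22 ± 0.48 (adjusted p = 0.00741) on day 60. Members of this family resemble each other, and how reads that match several genes were handled is not stated.

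The guanylate-binding proteins are larger GTPases with the same inducers, and 4 lie in a cluster on chromosome 3. 1 of 4 was called higher on day 1, 0 on day 3 (2 at an unadjusted p under 0.05), 2 on day 7 and 4 at each of days 21 and 60. Gbp2 (ENSMUSG00000028270.12, chr3:142620602-142638008) stood at 14.5 and 30.5 CPM in sham, 49.5 and 107 on day 1, 46.8 and 76.6 on day 3, 73.7 and 153 on day 7, 229.7 and 348 on day 21 and 158 and 314 on day 60. Replicate 2 was the higher library in every group, and days 21 and 60 lay above all earlier libraries. It was 1.45 ± 0.59 (adjusted p = 0.0829, or 0.000883 with the replicate number as a block) on day 3, not called, and 3.39 ± 0.63 (adjusted p = 0.00354) on day 60. Gbp3 (ENSMUSG00000028268.14, chr3:142560026-142573209) stood at 21.1 and 37.7 CPM in sham, 58.5 and 73.5 on day 1, 60.9 and 63.4 on day 3, 85.6 and 149 on day 7, 150.1 and 246 on day 21 and 118 and 259 on day 60. It was 1.17 ± 0.48 (adjusted p = 0.0931, or 0.00699 with the replicate number as a block) on day 1, not called, and 2.68 ± 0.51 (adjusted p = 0.00395) on day 60. Gbp5 (ENSMUSG00000105504.4, chr3:142493978-142522344), which promotes inflammasome assembly, stood at 6.63 and 7.38 CPM in sham, 10.7 and 14.5 on day 1, 3.73 and 3.61 on day 3, 8.93 and 9.94 on day 7, 16.1 and 14.2 on day 21 and 16.3 and 20.1 on day 60. It was the member with both day 3 libraries below both sham libraries, as were 31.2% of all genes. In log2 terms it differed from sham by -0.93 ± 0.36 (adjusted p = 0.0693, or 0.0407 with the replicate number as a block) on day 3 and 1.38 ± 0.36 (adjusted p = 0.0161) on day 60. The day 60 call ended without sham replicate 1 (adjusted p = 0.0936), without sham replicate 2 (adjusted p = 0.0638) and without day 60 replicate 2 (adjusted p = 0.0755), with a range from 0.00228 to 0.0936 over 16 changed settings. Gbp7 was 1.59 ± 0.48 (adjusted p = 0.0297) on day 60, a call that ended without sham replicate 1, sham replicate 2 or day 60 replicate 2.

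Parp9 and Dtx3l encode partners in the modification of histones, Parp14 is a related enzyme, and the 3 genes lie together on chromosome 16. 1 of 3 was called higher on day 1, 2 on day 3 and 3 at each later time. Parp9 (ENSMUSG00000022906.15, chr16:35938470-35972605) stood at 7.41 and 13.9 CPM in sham, 28.0 and 37.3 on day 1, 36.3 and 36.4 on day 3, 56.6 and 63.3 on day 7, 64.2 and 61.3 on day 21 and 39.9 and 64.8 on day 60. All libraries after stroke lay above sham. The log2 fold change from sham was 2.29 ± 0.38 (adjusted p = 0.00218) on day 60. Dtx3l (ENSMUSG00000049502.17, chr16:35926511-35939151) stood at 4.66 and 7.59 CPM in sham, 15.6 and 8.83 on day 1, 28.5 and 10.1 on day 3, 56.0 and 27.7 on day 7, 48.2 and 30.2 on day 21 and 28.6 and 28.9 on day 60. It was highest at days 7 and 21. Its log2 fold change was 2.22 ± 0.58 (adjusted p = 0.0172) on day 60. The day 60 call ended without sham replicate 1 (adjusted p = 0.112), without sham replicate 2 (adjusted p = 0.0514), without day 60 replicate 1 (adjusted p = 0.0546) and without day 60 replicate 2 (adjusted p = 0.0571), with a range from 0.00142 to 0.112 over 16 changed settings. Parp14 (ENSMUSG00000034422.14, chr16:35832874-35871544) stood at 2.93 and 3.82 CPM in sham, 14.3 and 7.39 on day 1, 25.7 and 4.48 on day 3, 18.5 and 12.3 on day 7, 32.0 and 21.7 on day 21 and 39.3 and 37.3 on day 60. The day 3 libraries lay far apart. Against sham the log2 fold change was 3.50 ± 0.74 (adjusted p = 0.00660) on day 60. The day 60 call ended without sham replicate 1 (adjusted p = 0.0539), with a range from 7.27e-06 to 0.0539 over 16 changed settings. Exons of Dtx3l and Parp9 overlap on opposite strands.

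Of the 6 remaining members 5 were called higher at each of days 1, 3 and 7 and 6 at each of days 21 and 60. Sp100, a component of nuclear bodies (ENSMUSG00000026222.16, chr1:85649988-85709998), stood at 15.1 and 20.4 CPM in sham, 66.7 and 57.4 on day 1, 50.4 and 36.4 on day 3, 49.4 and 77.9 on day 7, 78.6 and 142 on day 21 and 99.0 and 179 on day 60. All libraries after stroke lay above sham. In log2 terms it differed from sham by 2.96 ± 0.46 (adjusted p = 0.00141) on day 60. Trim30a, a regulator of inflammatory signalling (ENSMUSG00000030921.17, chr7:104409025-104465193), stood at 7.59 and 10.2 CPM in sham, 28.4 and 20.1 on day 1, 25.2 and 15.7 on day 3, 30.6 and 30.9 on day 7, 34.4 and 40.1 on day 21 and 41.7 and 48.1 on day 60. The log2 fold change from sham was 2.33 ± 0.36 (adjusted p = 0.00148) on day 60. Ifi35 (ENSMUSG00000010358.13, chr11:101448407-101458698) stood at 20.5 and 18.6 CPM in sham, 146 and 78.4 on day 1, 72.7 and 48.2 on day 3, 59.0 and 80.7 on day 7, 70.1 and 95.3 on day 21 and 169 and 126 on day 60. The day 60 libraries lay above those of days 3, 7 and 21. Its log2 fold change was 2.52 ± 0.42 (adjusted p = 0.00303) on day 1 and 2.92 ± 0.42 (adjusted p = 0.000990) on day 60. Xaf1, linked to cell death, was 2.14 ± 0.39 (adjusted p = 0.00337) on day 60. Rtp4 was 2.98 ± 0.49 (adjusted p = 0.00191) and Ifi44 3.35 ± 0.73 (adjusted p = 0.00778) at the same time, and the Ifi44 call ended without either sham replicate.

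Early and chronic levels were then compared directly, as the mean of days 21 and 60 against the mean of days 1 and 3, with 4 libraries on each side. 17 of 43 members were higher in the chronic phase and 0 were lower, where 8.72% of all genes were called higher and 8.15% lower. At an unadjusted p under 0.05 the counts were 28 and 0. The log2 difference was above 0 for 43 of 43 members, with a median of 1.13 against -0.02 over all genes tested, and Ifi204 and Irgm1 each changed sign under 1 of 16 changed settings. In 19 of 43 members all 4 chronic libraries lay above all 4 early ones, as in 10.1% of all genes. With the replicate number as a block 28 were called and with day 60 alone against day 1 alone 9. Over the same phases the summed macrophage markers were at 450.3 to 487 CPM on day 1, 4997 to 7681 CPM on day 3, 2168 to 3366 CPM on day 21 and 2052 to 2619.9 CPM on day 60. The fibroblast sums were at 1672 to 2353 CPM on day 1, 5526 to 22159.6 CPM on day 3, 25358 to 50385 CPM on day 21 and 16616 to 27438 CPM on day 60, and so were higher in every chronic library than on day 1. Summed astrocyte markers stood at 3884 to 11985 CPM on day 1, 3364 to 8246 CPM on day 3, 2567 to 2983 CPM on day 21 and 2757 to 3082 CPM on day 60, lower in every chronic than in every early library. This sum weighs abundant markers such as Aldoc and Gfap most, and its markers did not all move alike. On days 1, 3, 21 and 60 Aldh1l1 had means of 338, 205, 60.6 and 65.1 CPM. Those of Gjb6 were 171, 136, 297 and 448 CPM. Summed endothelial markers stood at 5679.8 to 7248 CPM on day 1, 1057 to 3510.4 CPM on day 3, 1408 to 3090.5 CPM on day 21 and 1486 to 3191 CPM on day 60, highest on day 1 and overlapping between the other 3 times. Microglial sums were at 206 to 258 CPM on day 1, 1826 to 2214 CPM on day 3, 1071 to 1383 CPM on day 21 and 377 to 540.2 CPM on day 60. Every chronic library thus lay above day 1 and below day 3. The part of these cells in the chronic minus early difference was not tested.

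The largest called differences came from regulators, sensors and GTPases. Irf7 differed by 2.33 ± 0.27 (adjusted p = 0.000636) on the log2 scale, Iigp1 by 2.19 ± 0.34 (adjusted p = 0.00247), Irgm2 by 2.14 ± 0.40 (adjusted p = 0.00630), Dhx58 by 2.12 ± 0.27 (adjusted p = 0.00100) and Zbp1 by 2.02 ± 0.25 (adjusted p = 0.000770). Among the guanylate-binding proteins Gbp2 differed by 1.91 ± 0.42 (adjusted p = 0.0131), Gbp3 by 1.59 ± 0.35 (adjusted p = 0.0125) and Gbp5 by 1.29 ± 0.25 (adjusted p = 0.00756). The call of Gbp2 ended without day 3 replicate 1 (adjusted p = 0.0526), with a range from 4.00e-05 to 0.0526 over 16 changed settings. Ifit1 differed by 1.51 ± 0.38 (adjusted p = 0.0225). The call of Ifit1 ended without day 1 replicate 2 (adjusted p = 0.0534), without day 3 replicate 2 (adjusted p = 0.0645), without day 21 replicate 1 (adjusted p = 0.0843) and without day 60 replicate 1 (adjusted p = 0.0624), with a range from 0.000243 to 0.0843 over 16 changed settings. Sp100 differed by 1.25 ± 0.31 (adjusted p = 0.0210). The call of Sp100 ended without day 1 replicate 2 (adjusted p = 0.0508), without day 3 replicate 2 (adjusted p = 0.0602), without day 21 replicate 2 (adjusted p = 0.0848) and without day 60 replicate 2 (adjusted p = 0.0645), with a range from 0.000991 to 0.0848 over 16 changed settings. Trim30a differed by 0.88 ± 0.25 (adjusted p = 0.0365). The call of Trim30a ended without day 1 replicate 2 (adjusted p = 0.0788), without day 3 replicate 2 (adjusted p = 0.0867), without day 7 replicate 1 (adjusted p = 0.0619), without day 7 replicate 2 (adjusted p = 0.0590), without day 21 replicate 1 (adjusted p = 0.0908), without day 21 replicate 2 (adjusted p = 0.113), without day 60 replicate 1 (adjusted p = 0.0592) and without day 60 replicate 2 (adjusted p = 0.0830), with a range from 0.00770 to 0.113 over 16 changed settings. The other 13 called members, among them Ifi47, Ifih1, Ifit3, Oasl2, Usp18 and Irf1, were called under all 16 changed settings. These settings do not include other choices of phase, such as day 60 alone against day 1 alone.

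For other members the difference between the phases was not called. Xaf1 differed by 0.19 ± 0.27 (adjusted p = 0.671) between the phases, Irgm1 by 0.20 ± 0.28 (adjusted p = 0.675), Ifitm3 by 0.27 ± 0.26 (adjusted p = 0.526), Samhd1 by 0.40 ± 0.24 (adjusted p = 0.286), Ifi35 by 0.42 ± 0.28 (adjusted p = 0.331), Eif2ak2 by 0.48 ± 0.24 (adjusted p = 0.201) and Bst2 by 0.53 ± 0.24 (adjusted p = 0.162). A p that misses the threshold does not show that the phases were alike. Igtp differed by 0.74 ± 0.33 (adjusted p = 0.152, or 0.0375 with the replicate number as a block), beside 2.14 for Irgm2, whose promoter stretch is nearly the same. The difference between these genes was not tested.

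**Figure D4:**
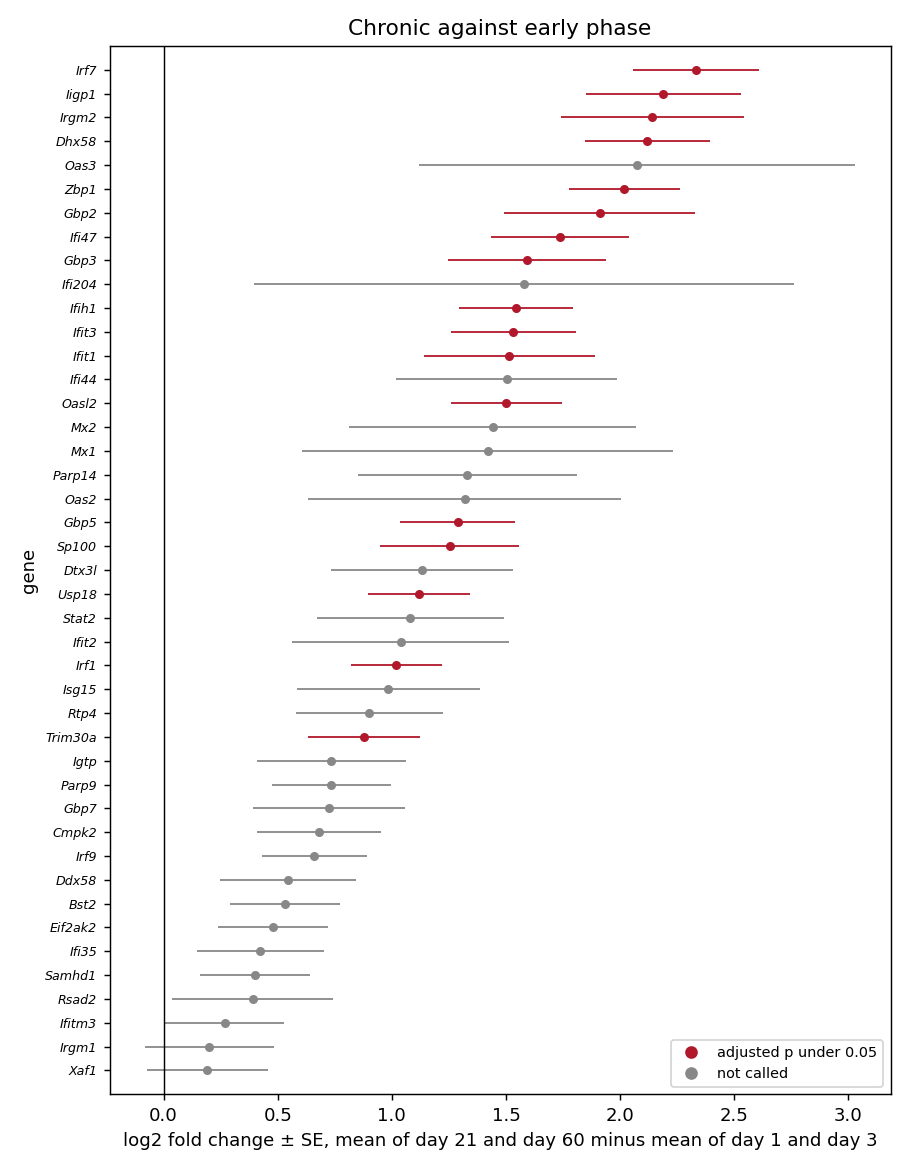
Log2 fold change ± SE of each member between the chronic phase (mean of days 21 and 60) and the early phase (mean of days 1 and 3), 4 libraries each. All 43 lie above 0, from 0.19 for Xaf1 to 2.33 for Irf7, and 17 were called.

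Between neighbouring times few members passed the test. From day 1 to day 3 Zbp1 rose by 1.44 ± 0.34 (adjusted p = 0.0488) and Gbp5 was lower, at -1.78 ± 0.36 (adjusted p = 0.0255), where 3.09% of all genes were called higher and 0.480% lower. From day 3 to day 7 Oasl2 rose by 1.64 ± 0.34 (adjusted p = 0.0260), where 3.06% of all genes were called higher and 3.22% lower. With the replicate block 13 members were called higher over that interval, and with DESeq2 8. From day 7 to day 21 edgeR without the block called 0 members higher or lower, where it called 0.243% of all genes higher and 0.198% lower, with 3 higher at an unadjusted p under 0.05. DESeq2 called 1 higher over that interval, and edgeR with the replicate block called 1 higher. From day 21 to day 60 it called 0, as it did over all genes (0.00%), with 2 members higher at an unadjusted p under 0.05. The Zbp1 call ended without any of 10 libraries, all but day 3 replicate 1 and day 60 replicate 1. The Gbp5 call ended without any of 7, namely day 1 replicate 2 and each replicate of days 3, 7 and 21. From day 3 to day 7 the count was 0 without any library of those 2 days and 2 without either of day 1. The highest group mean was on day 60 for 28 members, on day 21 for 9, on day 7 for 5 and on day 1 for 1. Over all genes tested, 11.2% had their highest mean on day 60.

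The other genes of the pathway were read from lists fixed by name. For the counts against sham below, the all-gene shares called higher were 16.7%, 18%, 23.2%, 17.8% and 16.8% at days 1, 3, 7, 21 and 60. Those called lower were 13.9%, 14.2%, 19.8%, 15.4% and 14.8% in the same order. Of 11 listed interferon ligands 1, Ifnb1, passed the filter on low counts. Ifnb1, which encodes interferon beta, had 0 and 0 counts in sham, 2 and 4 on day 1, 13 and 99 on day 3, 3 and 0 on day 7, 0 and 6 on day 21 and 0 and 0 on day 60. Ifng, which encodes interferon gamma, had 2 and 11 counts on day 21 and 0 in every other group. Of 9 receptor and Janus kinase genes 3 were called higher on day 1, 4 on day 3, 8 on day 7, 6 on day 21 and 5 on day 60, and 0 were called lower. Ifngr1, a chain of the type II receptor, was 3.19 ± 0.41 (adjusted p = 0.000536) on day 60, and Ifnar2, a chain of the type I receptor, was 2.46 ± 0.32 (adjusted p = 0.000553). Jak1 was 1.66 ± 0.36 (adjusted p = 0.00725). The Jak1 call ended without sham replicate 1 (adjusted p = 0.0668) and without day 60 replicate 2 (adjusted p = 0.0515), with a range from 6.52e-05 to 0.0668 over 16 changed settings.

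Among the other factors and signalling genes, Irf8, a factor of myeloid cells, was 2.93 ± 0.34 (adjusted p = 0.000313) and Irf3 2.38 ± 0.40 (adjusted p = 0.00206) on day 60. Of 13 tested sensors and adaptors 9 were called higher on day 1, 7 on day 3, 9 on day 7, 8 on day 21 and 6 on day 60. Traf3, an adaptor named after its values were seen, was called lower at all 5 times, with -1.49 ± 0.37 (adjusted p = 0.0131) on day 60. Ikbke was 3.59 ± 0.46 (adjusted p = 0.000498), Tlr4 3.10 ± 0.59 (adjusted p = 0.00391) and Myd88 3.23 ± 0.33 (adjusted p = 0.000146) on day 60.

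Of 10 negative regulators 4 were called higher on day 1 and 5 at each later time. Counts called lower are not given here for this list or for the sensors and adaptors. Socs3 was 4.78 ± 0.84 (adjusted p = 0.00268), Socs1 2.93 ± 0.46 (adjusted p = 0.00156) and Trim21 2.31 ± 0.44 (adjusted p = 0.00407) on day 60. Of 59 further interferon-stimulated genes that were tested, 22 were called higher on day 1, 26 on day 3, 32 on day 7, 36 on day 21 and 38 on day 60, and 0 were called lower. 15 of these 59 were called higher in the chronic than in the early phase, as were 8.72% of all genes. Cxcl10, a chemokine for T cells, was 6.16 ± 0.73 (adjusted p = 0.000337), Ifi30 4.36 ± 0.46 (adjusted p = 0.000181) and Slfn8 5.46 ± 0.92 (adjusted p = 0.00224) on day 60.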

How the data were processed

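Raw counts per gene symbol were deposited by the authors as a table of the whole series and as single files, which agreed in 189288 of 189288 values. Per the submitters' processing notes, HTSeq 0.6.1, Bowtie2 2.3.4.2 and mm10 were used. The annotation, the strand setting and the rule for reads with several matching genes are not given in the sources used here.

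The tests ran in edgeR 4.0.16 under R 4.3.3 (TMM, filterByExpr with a minimum count of 10, 15635 genes kept) in 1 quasi-likelihood fit of all 12 libraries with a coefficient per group. Every adjusted p is Benjamini-Hochberg adjusted over these genes and comes from edgeR unless DESeq2 1.42.0 is named. An error after ± is a standard error derived from the test, as the absolute log2 fold change divided by the square root of the F statistic. The script was tested on simulated data. Count ratios use the counts of both libraries of a group pooled. Their intervals are exact and cover counting error at 95%. Gene positions are from GENCODE for GRCm38.

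The members and lists were chosen with earlier results of these data known. Values in all libraries are given for up to 3 members per role group with the smallest p over all groups together and a mean of at least 10 CPM in some group, and for Irf7, Irf1, Ifit1, Isg15 and Gbp2. Up to 3 genes are named per pathway list, those called at the most times and then with the largest change. Some results of these lists are not reported here. As a check of pairing, the log2 difference of replicate 2 from replicate 1 was correlated between groups. In 15 of 15 group pairs r was above 0.1 (0.319 to 0.713). Libraries were therefore also paired by their number in an alternative model, the replicate block. The main tests, their counts of members and their standard errors do not use this pairing. The alternatives were DESeq2 size factors, no filter, DESeq2's Wald test, the replicate block, leaving out each of the 12 libraries, other phases and other motif spellings.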

Additional observations from a re-analysis of the deposited data

Results flagged for a closer look

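For 17 members the level after stroke differed between the chronic phase and the early phase by the test of that difference itself (edgeR, adjusted over all genes). That test compares stroke libraries alone, so it cannot part stroke from the time after surgery. The log2 difference was 2.33 for Irf7, 2.19 for Iigp1, 2.14 for Irgm2, 2.12 for Dhx58, 2.02 for Zbp1, 1.91 for Gbp2, 1.74 for Ifi47, 1.59 for Gbp3, 1.54 for Ifih1, 1.53 for Ifit3, 1.51 for Ifit1, 1.5 for Oasl2, 1.29 for Gbp5, 1.25 for Sp100, 1.12 for Usp18, 1.02 for Irf1 and 0.88 for Trim30a. Each was higher in the chronic phase.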

How the results depend on the processing

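Over the single-gene results 3322 values under changed settings kept their direction and their side of the threshold, 163 lost the call, 35 gained it and none of the called values changed sign. The counts of members called higher ranged, with each library left out in turn, from 15 to 29 at day 1, 13 to 28 at day 3, 0 to 1 from day 1 to day 3, 0 to 2 from day 3 to day 7 and 14 to 20 for chronic against early, and the count lower from day 1 to day 3 ranged from 0 to 1. With DESeq2's Wald test the counts were 1 lower at day 3, 2 lower from day 1 to day 3, 8 higher from day 3 to day 7 and 1 higher from day 7 to day 21. With the replicate block they were 1, 2, 13 and 1, and 28 for chronic against early. The block ended no call of a member against sham or between the phases. DESeq2 size factors gave 1 member lower at day 3, and without a filter 0 were higher from day 1 to day 3. With day 60 alone against day 1 alone the count was 9. The GAS count was 5 of 32 with 4 bases in place of 3 between TTC and GAA. The causes were not tested. Under DESeq2 size factors the all-gene median against sham shifted by -0.09 to -0.14 in log2. In sham Mx1 and Ifi204 had 3 counts each, all in replicate 1, and Ifnb1 had 0, so their ratios to sham carry wide counting intervals or cannot be given.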

Other observations

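At the early times the 2 libraries of a group differed in the same direction over most members. Replicate 2 was the higher library for 9 of 43 members at day 1 and 6 of 43 at day 3, where it was the higher one for 47.0% and 53.0% of all genes tested. In sham it was the higher one for 19 members, and at days 7, 21 and 60 for 26, 21 and 23. At the same times the astrocyte marker sum was 3884 and 11985 CPM at day 1 and 3364 and 8246 CPM at day 3, higher in replicate 2. The fibroblast, microglial, leukocyte, neuronal and oligodendrocyte sums were also higher in replicate 2 at both times. Those of endothelium, macrophages, and pericytes and smooth muscle were higher in replicate 1. The endothelial sum was 7248 and 5679.8 CPM at day 1 and 3510.4 and 1057 CPM at day 3. The part of these sums in the member levels was not tested.

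Of the 32 members with a promoter window, 12 held an ISRE alone, 4 a GAS alone, 7 both and 9 neither. The chronic minus early difference was called for 6, 1, 2 and 4 of these, with median log2 differences of 1.30, 0.72, 0.72 and 1.25. These are descriptions of small groups and were not compared by a test.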
